A study of Mus musculus with 6 samples.

Results

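The 10 smooth muscle contractile genes *Acta2*, *Actg2*, *Myh11*, *Tagln*, *Cnn1*, *Des*, *Lmod1*, *Myocd*, *Smtn* and *Synpo2* were examined in whole lungs of *Tnrc6a* null and WT mouse embryos. They were taken by symbol from the probe sets that carry exactly 1 gene symbol, and the brightest probe set was to stand for a gene. Each of the 10 had 1 such probe set, so that all 10 were measured, out of 19938 genes on the array. The *Tnrc6a* null lungs, labelled Tnrc6a (GW182) mutant, came from 3 embryos at E18.5 that were homozygous for a gene trap with a β-galactosidase insertion (GW182gt/gt). The WT lungs came from 3 wild type littermates of the same age, and both genotypes were on a C57Bl/6 background. Each lung was from an individual embryo and gave 1 Affymetrix Mouse Gene 1.0 ST array, and no label ties a null embryo to a WT embryo of the same litter. The gene trap acts in every cell that transcribes *Tnrc6a*, and not in smooth muscle alone.

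Smooth muscle wraps the airways and the blood vessels of the lung and is laid down well before birth. Its cells contract when a myosin motor pulls on actin filaments, and thin filament proteins and actin-binding proteins organize and restrain that movement. The transcription factor SRF, with myocardin as its cofactor, switches on many of these genes together through a short DNA element called the CArG box. The members serve as standard markers of smooth muscle, although *Acta2* and *Tagln* are also made by myofibroblasts and *Des* by all muscle. In whole lung, fewer smooth muscle cells and less RNA in each such cell cannot be told apart.

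The sequences before the start of 2 members are shown because *Acta2* is the most used marker of smooth muscle and *Lmod1* had the largest negative difference, and because these were the members with a CArG-like element. The stretches are the 250 bases upstream of the RefSeq transcript start in GRCm38.p6, read 5′ to 3′ on the strand of the gene, and capitals mark each 10-base match to the CArG box with 1 base off. *Acta2* lies on the minus strand (chr19:34255374-34255623) and *Lmod1* on the plus strand (chr1:135324563-135324812).
Acta2: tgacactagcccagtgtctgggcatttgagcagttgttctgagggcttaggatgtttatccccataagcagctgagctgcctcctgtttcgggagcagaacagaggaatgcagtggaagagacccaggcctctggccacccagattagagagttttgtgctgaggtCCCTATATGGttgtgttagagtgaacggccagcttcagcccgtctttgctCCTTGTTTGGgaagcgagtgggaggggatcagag
Lmod1: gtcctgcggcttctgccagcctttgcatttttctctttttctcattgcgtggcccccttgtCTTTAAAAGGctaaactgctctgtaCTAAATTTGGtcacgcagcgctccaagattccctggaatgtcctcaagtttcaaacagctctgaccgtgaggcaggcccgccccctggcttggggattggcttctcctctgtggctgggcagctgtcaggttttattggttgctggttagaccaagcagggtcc
In *Acta2* the matches CCCTATATGG and CCTTGTTTGG began 84 and 34 bases before the start. In *Lmod1* the matches CTTTAAAAGG and CTAAATTTGG began 189 and 164 bases before it. The element reads the same way on both strands. A promoter was found for 6 of the 10 members (*Acta2*, *Cnn1*, *Des*, *Lmod1*, *Smtn* and *Synpo2*). None of the 6 held the full CArG box in this window, and 2 of the 6 held it with 1 base off. Of all 32851 promoter windows of this length, 1.47% held the full box and 18.6% held it with at most 1 base off. A match of letters is not a binding site, and the letters of these windows say nothing on whether SRF acts there.

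In the null lungs *Tnrc6a* had signals of 5.45, 5.04 and 5.4, against 7.38, 7.13 and 7.18 in WT lungs. Each lung thus bore out its label, with a difference of -1.93 (adjusted p = 0.00312 from limma, and 0.0552 without WT replicate 3). All signals are on the log scale as deposited. The labels give the base of the logarithm as 2, but the base was not settled from the sources used here, so that changes are given as the difference *Tnrc6a* null minus WT and never as a fold. The array medians lay between 4.98 and 5.03. Lung markers were bright in both genotypes, with *Sftpc*, the surfactant protein of alveolar type 2 cells, between 11.66 and 11.82 in null lungs and between 11.64 and 11.82 in WT lungs. Over genes, the signals of null replicate 3 and WT replicate 1 correlated at 0.992, and any pair of lungs at no less than 0.979 and no more than 0.993. These 2 lungs were the highest in *Acta2* and *Actg2* below, and in no other member were they the 2 highest. No batch that they share is named in the sources used here.

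The contractile genes did not differ between the genotypes beyond the spread of the lungs. At an adjusted p of 0.05 from limma over all genes, 0 of the 10 members were called, and 0.00502% of all genes were, which is *Tnrc6a* alone. At an unadjusted p under 0.05, 0 of the 10 were called as well, against 5.42% of all genes. Single members crossed that unadjusted line under other settings, which were *Synpo2* with array weights, *Tagln* without null replicate 1, *Lmod1* without null replicate 2 and *Actg2* with a block for null replicate 3 and WT replicate 1, and none of them passed the adjusted threshold there. On average 6 members were lower in null lungs and 4 were higher, and 49.8% of all genes were lower. The differences ran from -0.32 for *Lmod1* to 0.28 for *Actg2*, with a median of -0.068 over the members and of 0 over all genes. In none of the 10 did the 3 null lungs lie all on one side of the 3 WT lungs, against 10.2% of all genes that kept the genotypes apart. The 95% intervals of all 10 differences included 0. Their half-widths went from 0.181 for *Smtn* to 0.604 for *Actg2*. These half-widths belong to a single gene, and the adjusted threshold over all genes asks for a larger change. The median difference of all genes also went with the signal, from 0.153 in the dimmest to -0.063 in the brightest of 10 classes of equal size. Set against the median of the class in which each gene lay, 5 of the 10 members were lower and 5 were not.

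**Figure D1:**
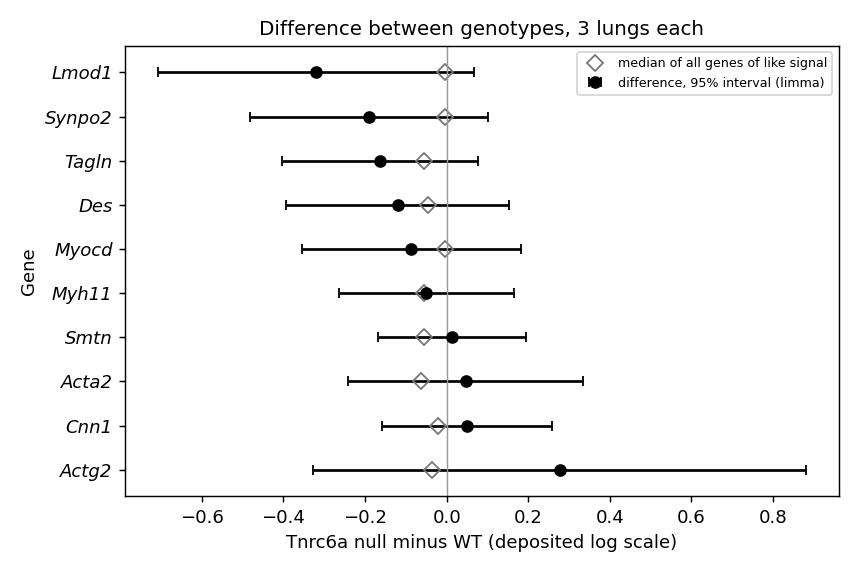
Difference between *Tnrc6a* null and WT lungs for each contractile gene. The horizontal axis is the difference on the deposited log scale, points are the limma estimates with 95% intervals (3 lungs of each genotype), and open diamonds are the median difference of all genes in the same class of signal. All 10 intervals include 0, and the interval of *Actg2* is the widest, from -0.33 to 0.88.

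The smooth muscle actins stood higher in 1 lung of each genotype. *Acta2*, which encodes the α-actin of vascular smooth muscle and myofibroblasts, had signals of 9.47, 9.45 and 9.82 in null lungs, against 9.75, 9.42 and 9.43 in WT lungs. The 2 highest lungs were null replicate 3 and WT replicate 1, and the other 4 lay within 0.05 of each other. The difference was 0.05 (standard error 0.126, 95% interval -0.24 to 0.33, adjusted p = 0.975 from limma). *Actg2*, the γ-actin typical of visceral smooth muscle, had signals of 6.56, 6.09 and 7.02 in null lungs, against 6.8, 5.97 and 6.07 in WT lungs. The same 2 lungs were the highest, null replicate 1 lay between, and the genotypes overlapped. The means were 6.56 ± 0.47 in null lungs and 6.28 ± 0.45 in WT lungs (SD, n = 3 each), and the difference was 0.28 (standard error 0.266, 95% interval -0.33 to 0.88, adjusted p = 0.92 from limma). The difference of *Actg2* was 0.045 without null replicate 3 and 0.537 without WT replicate 1. Its spread over the 6 lungs, an SD of 0.438, exceeded that of 96.4% of all genes.

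The other muscle actins share most of their coding sequence with these genes, and how well the probes tell them apart was not tested. *Acta1*, the actin of skeletal muscle, stood at 5.41, 5.39 and 5.98 in null lungs, against 5.59, 5.31 and 5.43 in WT lungs, again with null replicate 3 and WT replicate 1 on top. *Actc1*, the actin of heart muscle, stood at 9.13, 8.54 and 9.01 in null lungs, against 8.98, 8.59 and 8.96 in WT lungs, in another order. The lungs high in *Actg2* were also those high in cell proliferation genes. Relative to the 6-lung mean, the mean of 15 proliferation genes stood at 0.199, -0.167 and 0.342 in null lungs, against 0.181, -0.27 and -0.285 in WT lungs. *Actg2* itself stood at 0.14, -0.33 and 0.60 in null lungs, against 0.38, -0.45 and -0.35 in WT lungs. Both put the same 3 lungs, null replicates 1 and 3 and WT replicate 1, above the mean, and the part of proliferating cells in the signal of *Actg2* was not tested.

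**Figure D2:**
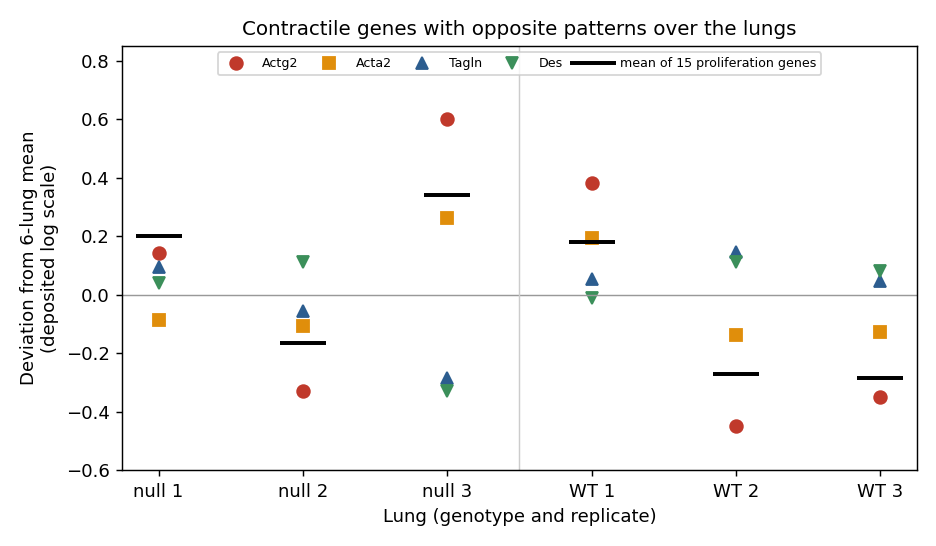
Deviation of 4 contractile genes from their 6-lung mean in each lung. The vertical axis is on the deposited log scale, each symbol is 1 gene in 1 lung, and the black dash is the mean of 15 proliferation genes. In null replicate 3 *Actg2* stands at 0.60 and *Acta2* at 0.26, whereas *Tagln* stands at -0.285 and *Des* at -0.33.

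*Myh11*, the heavy chain of the smooth muscle myosin motor and the marker most confined to smooth muscle, lay at 7.26, 6.96 and 7.02 in null lungs, against 7.15, 7.13 and 7.11 in WT lungs. The WT lungs were within 0.04 of each other and the null lungs lay on both sides of them. The difference was -0.05 (standard error 0.094, 95% interval -0.26 to 0.16, adjusted p = 0.956 from limma). *Smtn*, which encodes smoothelin, an actin-binding protein of contractile smooth muscle, lay at 7.61, 7.69 and 7.67 in null lungs, against 7.75, 7.63 and 7.55 in WT lungs. The null lungs fell inside the range of the WT lungs, and the difference of 0.01 (standard error 0.080) turned to -0.02 when arrays were centred on their medians. *Smtn* had the narrowest interval of the members, from -0.17 to 0.19.

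The calponin family gave one gene near the WT level and one that was lower on average. *Cnn1*, calponin 1, which binds actin and slows the myosin motor, stood at 6.01, 5.87 and 5.95 in null lungs, against 5.83, 5.86 and 5.99 in WT lungs. The genotypes overlapped over almost their whole range, with a difference of 0.05 (standard error 0.092, 95% interval -0.16 to 0.26). *Tagln*, which encodes transgelin, also called SM22α, an actin cross-linking protein of the same family, stood at 7.17, 7.02 and 6.79 in null lungs, against 7.13, 7.22 and 7.12 in WT lungs. The lowest lung was null replicate 3, the lung with the highest *Acta2* and *Actg2*, and null replicate 1 lay within the WT range. The means were 6.99 ± 0.19 in null lungs and 7.16 ± 0.06 in WT lungs (SD, n = 3 each), with a difference of -0.16 (standard error 0.105, 95% interval -0.40 to 0.08, adjusted p = 0.897 from limma). It was -0.0617 without null replicate 3 and -0.2517 without null replicate 1.

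The structural genes of the contractile apparatus were lowest in different null lungs. *Des*, the intermediate filament desmin that links the contractile units, stood at 6.82, 6.89 and 6.45 in null lungs, against 6.77, 6.89 and 6.86 in WT lungs. Only null replicate 3 lay below the WT range, and the difference of -0.12 (standard error 0.120) was 0.015 without that lung. *Synpo2*, which encodes synaptopodin 2, an actin-bundling protein of muscle, stood at 5.34, 4.98 and 5.39 in null lungs, against 5.37, 5.41 and 5.5 in WT lungs. Null replicate 2 was far below the others here, null replicate 1 was just under the WT range and null replicate 3 inside it. The difference was -0.19 (standard error 0.128, 95% interval -0.48 to 0.10, adjusted p = 0.897 from limma). It was -0.0617 without null replicate 2 and -0.2667 without null replicate 3.

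*Lmod1*, leiomodin 1, which nucleates actin filaments in smooth muscle, stood at 4.5, 5.1 and 4.95 in null lungs, against 5.13, 5.01 and 5.37 in WT lungs. The lowest value was that of null replicate 1, null replicate 3 lay just below the WT range, and null replicate 2 lay above WT replicate 2. The means were 4.85 ± 0.31 in null lungs and 5.17 ± 0.18 in WT lungs (SD, n = 3 each), and the difference was -0.32 (standard error 0.171, 95% interval -0.71 to 0.07, adjusted p = 0.89 from limma). *Lmod1* was among the 3 members below the median signal of all genes, with *Myocd* and *Synpo2*. The difference of *Lmod1* was -0.145 without null replicate 1 and -0.445 without null replicate 2. *Myocd*, the cofactor through which SRF drives the contractile genes, stood at 5.4, 5.03 and 5.29 in null lungs, against 5.29, 5.36 and 5.33 in WT lungs. Null replicate 1 was the highest of all lungs and null replicate 2 the lowest, and the difference was -0.09 (standard error 0.118, 95% interval -0.35 to 0.18).

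**Figure D3:**
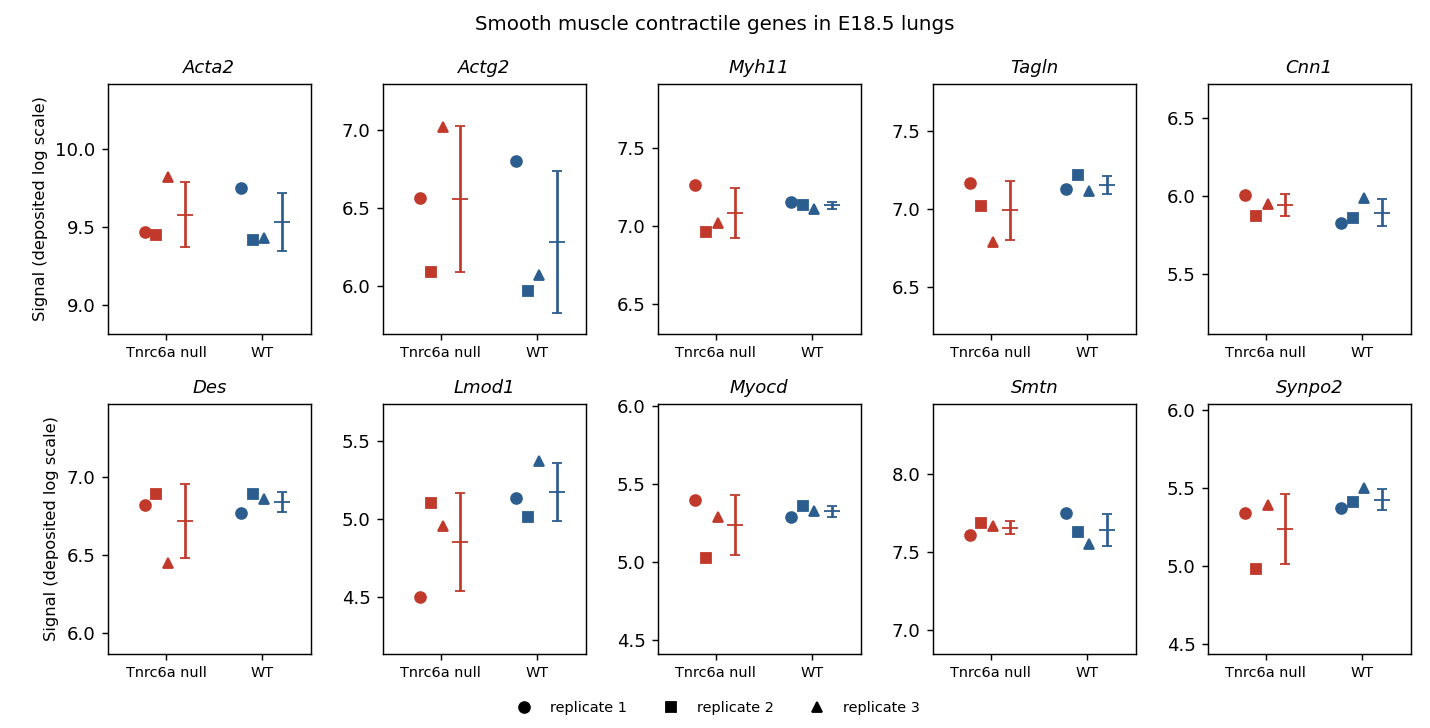
Signal of the 10 contractile genes in each E18.5 lung. The vertical axes are on the deposited log scale and span the same range for each gene, the shape of a point gives the replicate number of the lung, and a bar with its error shows the mean and SD (n = 3). The genotypes overlap in all 10 genes, and the null lungs of *Myh11*, *Tagln*, *Des*, *Myocd* and *Synpo2* are spread more widely than the WT lungs.

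The members did not go up or down together from lung to lung. Null replicate 2 was below the 6-lung mean in 7 members and had the lowest value in 3, whereas WT replicate 1 was above it in 8. Null replicate 3 held the highest value of *Acta2* and *Actg2* and the lowest value of *Tagln* and *Des*. The SD was larger among null lungs than among WT lungs in 8 of the 10 members, against 53.3% of all genes, with a median SD over the members of 0.2 in null lungs and 0.076 in WT lungs. This count was chosen after the values were seen and was not tested. It went from 6 to 8 when 1 lung was left out, and it was 9 without both null replicate 3 and WT replicate 1. Over all genes the share with the larger SD in null lungs was 35.2% without null replicate 3 and 73.1% without WT replicate 1.

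Genes that work with the members were also below the threshold. Of 81 genes listed as contractile partners, calcium and cyclic GMP machinery, receptors and transcription regulators, 74 were measured and 0 passed an adjusted p of 0.05 from limma. Of the 74, 50 were lower and 23 higher on average, 8 lower and 1 higher of them at an unadjusted p under 0.05, against 2.96% and 2.46% of all genes. Calls among bright genes leaned to the lower side. Of the 9967 genes above the median signal, fitted alone, 684 lay at an unadjusted p under 0.05, and 533 of them were lower. Against the median of their own class of signal, 46 of the 74 were lower. In 15 of the 74 the genotypes did not overlap, against 10.2% of all genes and 12.2% of those above the median signal. These were 7 contractile partners and 3 calcium and cyclic GMP genes, all lower. The rest were 3 receptors (1 lower, 2 higher) and 2 transcription regulators (1 lower, 1 higher), and these counts were not tested. Among 27 contractile partners, 19 were lower, with a median difference of -0.063, and 16 were lower than the median of their class. Of all genes above the median signal, 65.4% were lower, with a median difference of -0.047. *Mylk*, the kinase that turns on the myosin motor, had a difference of -0.01 (standard error 0.079) and *Myl9*, the light chain it acts on, one of 0.14 (standard error 0.113). *Vcl*, vinculin of the adhesion plaques, stood at 8.06, 8.08 and 8.1 in null lungs, against 8.6, 8.27 and 8.32 in WT lungs, with a difference of -0.32 (standard error 0.096, adjusted p = 0.89 from limma). The null lungs lay below the WT lungs also for *Csrp1*, a partner of SRF in smooth muscle (-0.20), and for *Cald1*, the thin filament protein caldesmon (-0.17). *Hspb6*, on the same list, went the other way, at 0.23 (standard error 0.109) with overlap of the genotypes.

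Among 16 genes of calcium handling and the cyclic GMP route, 13 were lower, with a median difference of -0.113, and 12 were lower than the median of their class. At an unadjusted p under 0.05 from limma lay 4 of them, all lower, against 2.96% of all genes lower at that p. These 4 are described next, and none passed the adjusted threshold. *Pde5a*, the phosphodiesterase that breaks down cyclic GMP, was not among them, at -0.08 (standard error 0.069). *Gucy1a1*, a subunit of the nitric oxide receptor soluble guanylate cyclase, stood at 7.69, 7.89 and 7.88 in null lungs, against 8.13, 8.1 and 8.16 in WT lungs, with a difference of -0.31 (standard error 0.080, adjusted p = 0.89 from limma). Its partner subunit *Gucy1b1* stood at 7.04, 7.37 and 7.13 in null lungs, against 7.44, 7.49 and 7.49 in WT lungs, with a difference of -0.29 (standard error 0.097). In both subunits each null lung lay below each WT lung. *Prkg1*, the kinase that cyclic GMP activates, had a difference of -0.35 (standard error 0.125) with the genotypes apart, and *Pde3a*, a cyclic nucleotide phosphodiesterase, one of -0.41 (standard error 0.166) with overlap.

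Of 12 receptors measured, 6 were lower and 6 higher, with *Ednrb*, an endothelin receptor that endothelium also expresses, at -0.25 (standard error 0.093) and *Avpr1a*, a vasopressin receptor, at 0.32 (standard error 0.137). Of 19 transcription regulators none lay at an unadjusted p under 0.05. *Srf* stood at 7.34, 7.25 and 7.19 in null lungs, against 7.12, 7.48 and 7.44 in WT lungs, with a difference of -0.09 (standard error 0.108). Its cofactors *Mrtfa* and *Mrtfb* had differences of -0.09 (standard error 0.088) and -0.10 (standard error 0.073), of the size found for *Myocd*.

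**Figure D4:**
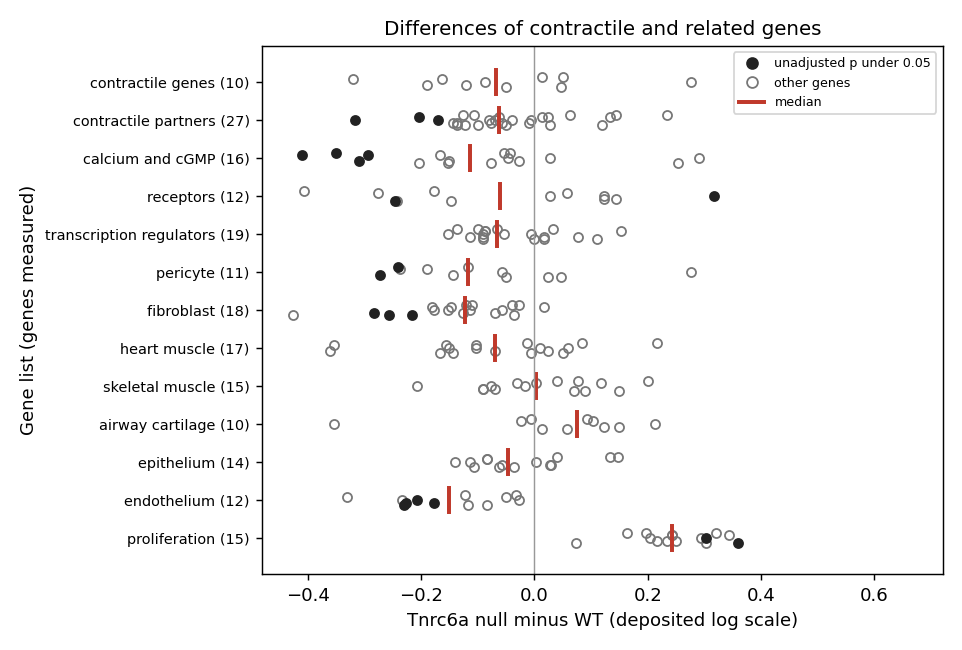
Differences between *Tnrc6a* null and WT lungs for contractile genes, related genes and markers of other cell types. Points are single genes, placed by their difference on the deposited log scale along the horizontal axis, filled points lie at an unadjusted p under 0.05 and red bars are medians. No point of the contractile genes is filled, and their median of -0.068 lies above those of the fibroblast list (-0.123) and the pericyte list (-0.117). With the median of its class of signal taken off each gene, the medians are -0.033, -0.06 and -0.06, and they were not compared by a test.

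The other cell types that share genes with smooth muscle were read in the same lungs. Of 11 pericyte markers, 8 were lower, with a median difference of -0.117, and 6 were lower than the median of their class. The mean signal of the list ran from 6.92 to 6.95 in null lungs and from 6.93 to 7.09 in WT lungs. *Pdgfrb*, the receptor that recruits mural cells to vessels, and *Notch3*, which acts in mural cells, had differences of -0.27 (standard error 0.083) and -0.24 (standard error 0.080), and in both each null lung was below each WT lung. *Ndufa4l2*, also on the list, went the other way, at 6.89, 6.92 and 7.06 in null lungs, against 6.41, 6.87 and 6.76 in WT lungs, a difference of 0.28 (standard error 0.124). Each null lung was above each WT lung in that gene. Of the 11 pericyte markers the genotypes were apart in 3 that were lower and 1 that was higher, against 10.2% of all genes in either direction. Of 18 fibroblast markers, 17 were lower, and 14 lower than the median of their class, with a mean signal of 8.21 to 8.27 in null lungs and 8.33 to 8.42 in WT lungs. Of 12 endothelial markers 12 were lower, with a median difference of -0.15, and 9 lower than the median of their class. The mean signal of that list overlapped, at 8.38 to 8.54 in null lungs and 8.52 to 8.69 in WT lungs. Of 14 epithelial markers 8 were lower and 6 higher, with a median difference of -0.047. All 15 proliferation genes were higher, with a median difference of 0.243. At an unadjusted p under 0.05 from limma lay 2 pericyte, 3 fibroblast and 4 endothelial markers, all lower, and 2 proliferation genes, all higher. No epithelial marker lay there. Of all genes 2.96% were lower and 2.46% higher at that p. None of these listed genes passed the adjusted threshold, and the difference between these lists and the contractile genes was not tested.

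*Des* is also a gene of heart muscle. Of 17 heart muscle markers, 11 were lower and 0 lay at an unadjusted p under 0.05, and the mean signal of the list went from 5.65 to 6.07 in null lungs and from 5.83 to 6.03 in WT lungs. The list was lowest in null replicate 3 (-0.23 relative to the 6-lung mean), where *Des* was lowest too. Its part in the value of *Des* was not tested. Of 15 skeletal muscle markers 7 were lower and 8 higher, with a mean signal of 4.44 to 4.69 in null lungs and 4.51 to 4.65 in WT lungs. Of 10 cartilage markers of the large airways 3 were lower and 7 higher, with a mean signal of 4.995 to 5.115 in null lungs and 4.91 to 5.12 in WT lungs. No marker on the skeletal muscle and cartilage lists lay at an unadjusted p under 0.05.

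Among genes above the median signal, the 5 whose deviations over the 6 lungs were closest to the mean of the members were *Ckap4*, *Yeats2*, *Ptms*, *Spopl* and *Hif1a*, at root mean square distances of 0.012 to 0.022. None of these is a contractile gene, and the mean of the members was itself nearly flat, at 0.001, -0.105 and 0.022 in null lungs, against 0.084, -0.023 and 0.020 in WT lungs. For *Actg2* alone, a choice made after its values were seen, and over genes of any signal, the closest genes were *Zwilch*, *Kif22*, *Bub1* and *Cenpn*, which act in mitosis, and the small nucleolar RNA gene *Snora23*, at distances of 0.074 to 0.083. *Bub1*, a kinase of the spindle checkpoint, stood at 6.61, 5.94 and 6.87 in null lungs, against 6.75, 5.97 and 5.95 in WT lungs. Likeness over 6 lungs says nothing of shared control.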

How the data were processed

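RNA of 6 E18.5 lungs, 3 *Tnrc6a* null and 3 WT, was profiled by the authors on Affymetrix Mouse Gene 1.0 ST arrays. The authors deposited 1 value for each of 35045 probe sets as logarithms, log2 per the labels, and the submitters' processing notes name MAS5. For its version and for any scaling between arrays, nothing is given in the sources used here. Values were used as deposited, so signal over background was not measured, and the number of arrays limits the precision.

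Probe sets with exactly 1 symbol (21789) were kept, symbols were brought up to date by Entrez ID for 21698 of them (GRCm38.p6), and the brightest probe set stood for a gene. All 19938 genes were fitted by limma 3.58.1 under R 4.3.3, where eBayes let the variance follow the signal. The difference was *Tnrc6a* null minus WT, and p was adjusted over all genes by Benjamini-Hochberg, with a threshold of 0.05. Tables and plots were made with pandas 2.3.3, numpy 2.4.6 and matplotlib 3.10.9 in Python 3.11.15. The fit was tested on simulated data with known changes.

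The members, the gene lists and the tests were chosen with earlier results of these data known. All members were named, with the 4 smallest p of each related list at most. Genes named besides these (*Mylk*, *Myl9*, *Srf*, *Mrtfa*, *Acta1*, *Actc1*, *Pde5a*, the pericyte genes and the genes closest to *Actg2*) were chosen after their values were seen. No p was computed over a list. The alternatives were quantile normalization, median centring, cyclic loess, genes above the median signal only, averaging of the probe sets of a gene, array weights, a robust eBayes and one with no trend, an unpaired t-test, a block for the replicate number, and omission of each lung in turn. After seeing the data, a block for null replicate 3 and WT replicate 1 and a fit that omits both lungs were added, as was the count of the larger SD with lungs left out. The sources used here name no test for the arrays, and the paired t-test of the methods is for staining data. Promoter sequences are from RefSeq (GRCm38.p6), and the array annotation names no build, so no other coordinates are given.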

Additional observations from a re-analysis of the deposited data

How the results depend on the processing

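No member was called under any of the 18 alternatives, where the smallest adjusted p of a member was 0.256 from limma (with the block for null replicate 3 and WT replicate 1). Of 117 values of single members under alternatives that keep every lung or leave out 2 of them, 116 kept their direction. *Smtn* turned to -0.0233 with median centring. Many of the 117 could not move, since several alternatives leave the difference of each member as it was. These are both blocks, the robust eBayes, the fit with no trend, the unpaired t-test and the genes above the median signal. Averaging of probe sets is another, as each member has 1. With 1 lung left out 52 of 60 values kept their direction, over ranges of -0.0733 to 0.155 for *Acta2*, 0.0167 to 0.0983 for *Cnn1*, -0.205 to 0.015 for *Des*, -0.14 to 0.01 for *Myh11*, -0.1667 to 0.0183 for *Myocd* and -0.0333 to 0.0667 for *Smtn*. *Lmod1* (-0.445 to -0.145), *Synpo2* (-0.2667 to -0.0617), *Tagln* (-0.2517 to -0.0617) and *Actg2* (0.045 to 0.5367) kept their direction in each of these fits. The members lower on average stayed at 5 to 8 of 10 without 1 lung and were 3 of 7 among genes above the median signal, where the median was 0.0133 because only 7 members are left. Without 1 lung the median went from -0.1425 to 0.0033. Members with no overlap numbered 1 with median centring, 1 with cyclic loess, 1 to 3 without 1 lung and 3 without both null replicate 3 and WT replicate 1. The share of all genes was 12.3% with median centring, 10.4% with cyclic loess, 15.9% to 26.7% without 1 lung (26.7% without WT replicate 1, where 3 members did not overlap) and 43.6% without both, since fewer lungs separate more easily. The genes called over the array numbered 2 with array weights, 0 with an unpaired t-test (1102 at an unadjusted p under 0.05), 0 to 1 without 1 lung (0 without WT replicate 3), 56 with the block for null replicate 3 and WT replicate 1 and 23 without both, and no member was among them. *Tnrc6a* had an adjusted p of 0.551 with the unpaired t-test and of 0.0552 from limma without WT replicate 3. With median centring, which moved the median of all genes to -0.037, 1065 of 1380 genes at an unadjusted p under 0.05 were lower, against 591 of 1081 as reported. Deviations of same-numbered lungs from the mean of their genotype correlated at -0.295, 0.361 and -0.162, with no common sign. With 3 lungs of each genotype, these values cannot settle whether the replicate number pairs the lungs. The fit with the replicate block called 1 gene. Each replicate number holds 1 lung of each genotype, so this block cannot change the differences. The 6 lower members and the median of -0.0683 were therefore fixed in advance under it.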
